A study of Mus musculus with 2 samples.

Results

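The major spliceosomal snRNAs and the small Cajal body RNAs (scaRNAs) were described in the non-polyadenylated (NPA) RNA of mouse embryonic stem cells (ESCs) and of neuronal progenitor cells (NPCs) derived from them. Genes were selected on their reads: all GENCODE release M1 genes of type snRNA, or named as scaRNA, were considered except those of the minor spliceosome (U11, U12, U4atac and U6atac), and a gene was kept when ESCs and NPCs together had at least 10 reads on its strand. Of the 1426 genes considered, 33 were kept, 13 of 1383 snRNA genes and 20 of 43 scaRNA genes. The whole annotation holds 37310 genes, of which 14859 had at least 10 reads. Because reads chose the members, their presence above this threshold is a description and carries no test.

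Both libraries came from male R1 ESCs kept on mitomycin-treated mouse fibroblast feeders with leukemia inhibitory factor, and the ESC library from passage 18. The NPCs were R1 ESCs that spent 4 days as embryoid bodies without the factor, were replated on poly-L-ornithine and fibronectin, and were gathered on day 7. No allele or drug was added in either group. Each cell type is 1 strand-specific SOLiD library, 4271306 reads in ESCs and 4399729 in NPCs, so a ratio compares these libraries, has no replicate check, and was not tested between the cell types.

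Splicing of most introns is carried out by the U1, U2, U4, U5 and U6 snRNPs, each a small nuclear RNA bound by proteins. Mammalian genomes hold many copies of each snRNA gene, most of them pseudogenes. U1, U2, U4 and U5 are made by RNA polymerase II as 3′-extended precursors, are trimmed, acquire a ring of Sm proteins in the cytoplasm and return to Cajal bodies, while U6 is made by RNA polymerase III. In Cajal bodies scaRNAs base-pair with snRNAs and guide their chemical modification, C/D box scaRNAs for 2′-O-methylation and H/ACA box scaRNAs for pseudouridylation, and most scaRNAs are cut out of introns of other genes. U7, also annotated as snRNA, acts in the 3′-end processing of histone mRNAs.

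The U2 copies are shown first because their last bases carry the pattern described for the snRNAs. The GENCODE copy AC120136.3 lies on mm9 chr1:72301582-72301772, on the plus strand in an intron of the lincRNA D230017M19Rik, and capitals mark the run ATTTTTGG of its Sm binding site and its last 4 bases.
AC120136.3: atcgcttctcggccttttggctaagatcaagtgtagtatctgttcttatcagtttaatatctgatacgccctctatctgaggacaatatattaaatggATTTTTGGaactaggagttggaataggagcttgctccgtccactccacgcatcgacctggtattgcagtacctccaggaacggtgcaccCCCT
Bases 141 to 191 of 4 copies are given below, with capitals at bases that differ from AC120136.3.
AC120136.3: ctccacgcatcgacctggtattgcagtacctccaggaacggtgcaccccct
ENSMUSG00000065820.1: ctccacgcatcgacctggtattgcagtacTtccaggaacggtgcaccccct
ENSMUSG00000065232.1: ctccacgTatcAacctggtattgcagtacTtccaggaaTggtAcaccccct
AC120136.1: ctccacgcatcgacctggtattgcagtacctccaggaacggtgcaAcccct
Counted from the first base of the gene, ENSMUSG00000065820.1 differs from AC120136.3 in this stretch by C170T and AC120136.1 by C186A. ENSMUSG00000065232.1 differs by C148T, G152A, C170T, C179T and G183A. The other 7 of the 11 full-length copies with reads do not differ from AC120136.3 there, so the reads below cannot be assigned to any 1 of those 8 copies, and the aligner placed each of them on 1 copy.

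The reads on U2 copies came in 2 main forms, which differ at the last base, in capitals. On AC120136.2 the form ending in C had 64 ESC and 17 NPC reads, the form ending in A 59 and 18.
U2 read, C form: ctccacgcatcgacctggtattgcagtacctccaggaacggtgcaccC
U2 read, A form: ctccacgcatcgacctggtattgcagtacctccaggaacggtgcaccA
The 48 nt of the C form occur 8 times in mm9. Those of the A form occur 0 times.

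Reads on the snRNA genes were unevenly spread over the families. U2 held 12 of the 13 snRNA members, with 975 reads in ESCs and 374 in NPCs, and U1, which pairs with 5′ splice sites, held the other member, with 31 and 6 reads. For U6, the catalytic snRNA, 11 of 940 copies had reads, 25 in all, and none reached the threshold. No read lay on the 43 copies of U4, the 10 of U5 or the 116 of U7, which allows up to 3 reads a library (the rounded one-sided 95% limit for a count of 0). The families include genes named after a clone and placed by at least 90% identity, and 14 such genes, without reads, could not be placed.

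These counts are bounded by a filter of the authors, who removed reads in Repeat Masker regions, a class that includes snRNA copies. On 10 of the 11 full-length U2 copies all 948 ESC intervals began at base 188, as did 357 of the 358 NPC intervals, so that of reads whose 48 nt begin at base 141 only the last base remained. The low or absent counts of U1, U4, U5, U6 and U7 therefore say nothing about the amount of these RNAs. Just inside the threshold were the U2 copy ENSMUSG00000084552.1, a 147-nt gene with 6 reads in ESCs and 4 in NPCs, and SCARNA21 in Fbxo3 with 7 and 3. Just outside was a U6 copy on chromosome 12, ENSMUSG00000064663.1, with 7 reads in ESCs and 2 in NPCs.

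U2, which pairs with the branch point of the intron, had fewer reads in NPCs than in ESCs on each of its 12 member copies. The summed reads gave an NPC over ESC ratio of 0.372 (exact 95% interval 0.330 to 0.420, counting error only), after scaling to reads per 1000000 library reads (RPM). Nearly all of them began at the same base of each copy. Each start position was also counted once, as the edge of the placed interval, and scaled by all distinct starts of the library instead of RPM. For U2 the 12 starts in ESCs and 13 in NPCs gave a ratio of 0.898 (0.378 to 2.15). Most of these were edges left by the repeat filter and not first bases of reads, so this ratio does not describe U2. The 11 full-length copies had between 21 and 132 reads in ESCs and between 12 and 56 in NPCs, and the interval of the ratio lay below 1 for 10 of them. AC120136.1 was the exception, with 21 reads in ESCs and 12 in NPCs and a ratio of 0.555 (0.249 to 1.18). All of the 13 snRNA members had a log2 ratio below 0 with 1 read added in each library, against 37.2% of the 14859 genes with at least 10 reads, and 11 were more than 2-fold lower, against 12.8%. As 8 of the copies share 1 set of reads, these counts are not independent observations. The U1 gene among the 13 members lies in an exon of Tcfcp2l1, and its reads were not shown to come from U1 RNA.

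Copies whose reads can be placed showed the same direction with wider intervals. ENSMUSG00000065820.1, the first of 5 member copies between 101466164 and 101519742 on chromosome 11, had 46 reads in ESCs and 19 in NPCs, a ratio of 0.401 (0.222 to 0.698). ENSMUSG00000065232.1 on chromosome 12, the most diverged of the full-length copies with 95.3% identity to AC120136.3, had 69 and 32 reads, a ratio of 0.450 (0.286 to 0.694). Over all U2 members, reads whose 48 nt occur once in mm9 numbered 75 in ESCs and 46 in NPCs, a ratio of 0.595 (0.403 to 0.871). These include 6 and 4 reads on the 147-nt copy ENSMUSG00000084552.1, of which only 0 and 1 had first 47 nt that occur once. By this rule ENSMUSG00000065820.1 had 20 and 10 reads, a ratio of 0.485 (0.203 to 1.09), and ENSMUSG00000065232.1 had 28 and 19, a ratio of 0.659 (0.348 to 1.22), so that both intervals included 1. Since the A form is nowhere in mm9, the rule drops it even on a copy of unique sequence. With the first 47 nt required to occur once, a rule added after the forms were seen, the reads numbered 134 and 64 and the ratio was 0.464 (0.339 to 0.629).

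The U1 member, ENSMUSG00000088363.1 on chr1:120578398-120578527, lies within the last exon of Tcfcp2l1, a transcription factor gene of pluripotent cells, on the same strand. Its 31 reads in ESCs and 6 in NPCs gave a ratio of 0.188 (0.0641 to 0.457). The rest of that exon had 1774 and 469 reads, a ratio of 0.257 (0.231 to 0.284), which lies inside the interval of the U1 member. All of the 31 and 6 reads were of unique sequence, so none matched another U1 copy in mm9 in full. Their placed bases ran from base 84 to base 135, past the last base of the gene, base 130. Whether they came from an RNA of this U1 copy or from the Tcfcp2l1 transcript was not tested, and the member is counted as U1 by its annotation only.

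The U2 reads ended at a sharp boundary. On the 11 full-length copies 925 of 969 ESC reads (95.5%) and 359 of 370 NPC reads (97.0%) began at base 141 and thus ended at base 188. A read from base 142, 143 or 144 ends inside the gene and outside the filtered bases as well, yet only 12 and 16 ESC reads began at base 142 and at bases 143 or 144, and 3 and 3 NPC reads did. Reads that ran past base 191, the annotated end of the gene, numbered 15 in ESCs and 3 in NPCs. The boundary stood at the same base in both libraries, but reads that ended before base 188 would not have passed the repeat filter, and reads that continued into bases unlike mm9 may not have been placed.

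At base 188 all of the 11 copies have C in mm9, and close to equal numbers of reads carried C and A. Of the 925 ESC reads from base 141, 485 had C, 438 had A (C188A) and 2 another base, so that A made up 47.4% (exact 95% interval 44.1 to 50.6%). Of 359 NPC reads 179 had C and 178 A, or 49.6% (44.3 to 54.9%), an interval that overlaps that of ESCs. Over all full-length placements in the libraries, a genomic C under the last base was read as A in 361 of 950812 ESC reads (0.0380%) and in 352 of 951688 NPC reads (0.0370%). Mature U2 is known to receive an untemplated adenosine after its 3′ end has been trimmed, but the A seen here cannot be told apart from the first base of another sequence joined to the end of the RNA, such as an adaptor.

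The A form was present on the copies of unique sequence too. On ENSMUSG00000065820.1 A was read in 26 of 45 ESC reads and 9 of 18 NPC reads, and on ENSMUSG00000065232.1 in 37 of 68 and 12 of 31. The copy with C186A stood apart: AC120136.1 had A in 1 of 17 ESC reads, 5.88% (0.149 to 28.7%), and in 0 of 10 NPC reads, which allows up to 30.8%. Its ESC interval did not overlap that of the other 10 copies together, where A made up 48.1% (44.8 to 51.4%).

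**Figure D1:**
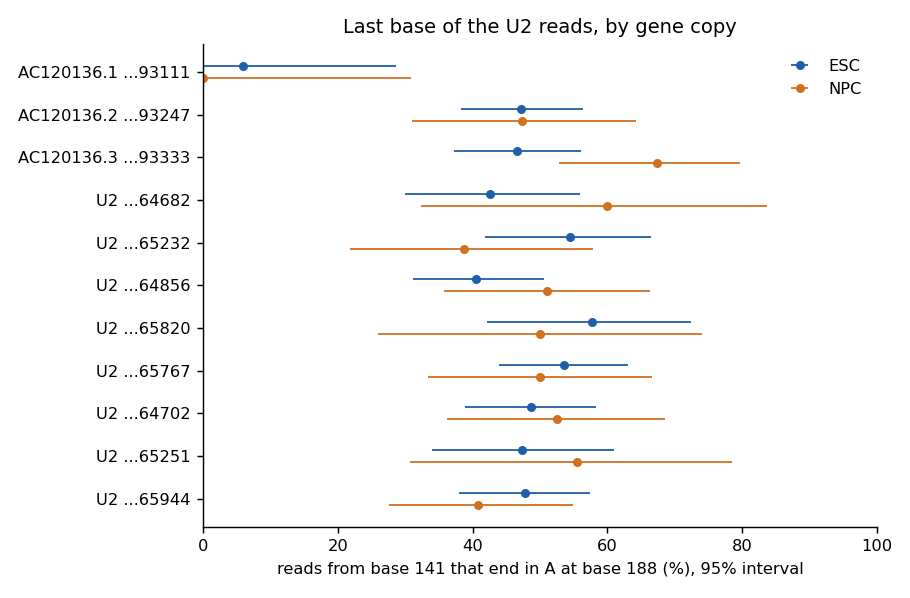
Share of the reads from base 141 of each full-length U2 copy that end in A at base 188, in percent, for ESCs and NPCs, with exact 95% intervals. Most copies lie near the pooled shares of 47.4% and 49.6%, and AC120136.1 lies at 5.88% and 0%.

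The octamer ATGCAAAT, searched on both strands from 250 bases before to 50 after the first base of each gene, was found at 10 of the 11 full-length U2 members. It was present in 2.27% of such windows over 37308 annotated genes and at 2 of the other 43 annotated U2 copies. Such an octamer is known as part of the distal element of snRNA promoters. It began between 222 and 233 bases before the gene in these 10 copies. The window of the copy ENSMUSG00000065944.1, which had 112 reads in ESCs and 56 in NPCs, is printed as an example (chr11:101519302-101519601, plus strand, octamer in capitals).
ENSMUSG00000065944.1 window: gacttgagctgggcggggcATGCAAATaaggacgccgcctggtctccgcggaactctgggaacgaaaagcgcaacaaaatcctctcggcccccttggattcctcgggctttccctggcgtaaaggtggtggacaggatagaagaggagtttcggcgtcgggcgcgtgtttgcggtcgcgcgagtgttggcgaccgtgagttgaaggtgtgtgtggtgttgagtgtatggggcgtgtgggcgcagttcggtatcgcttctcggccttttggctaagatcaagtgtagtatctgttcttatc
The copy without the octamer, ENSMUSG00000064682.1 on chromosome 8, had 63 reads in ESCs and 15 in NPCs. This copy and ENSMUSG00000065944.1 are among the copies that share reads, so the counts placed on them cannot be assigned to either copy. Of the 20 scaRNA members, 1 held the octamer in this window, and none of the 4 outside other genes did.

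The scaRNA members held far more reads than the snRNAs, 21550 in ESCs (0.505% of the library) and 11413 in NPCs (0.259%), and 97.1% and 97.8% of them had a sequence that occurs once in mm9. The summed ratio was 0.514 (0.503 to 0.526), and 0.518 (0.506 to 0.530) with reads of unique sequence. SCARNA6, Scarna10 and SCARNA16 supplied 59.8% of these ESC reads, and without them the ratio was 0.446 (0.429 to 0.463). The median log2 ratio of the 20 genes was -0.83 with 1 read added, that of all 14859 genes was 0.34, and 16 of the 20 lay below the latter. Of the 20, 15 were lower in NPCs, beside 37.2% of all genes, 9 were more than 2-fold lower, beside 12.8%, and 2 were more than 2-fold higher, beside 24.6%. None of the 20 had a read on the opposite strand.

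The libraries differed in their reads of cell type marker genes. All of the 8 pluripotency markers were lower in NPCs, from a summed 2177 RPM to 592, though the interval of Klf4 included 1 (0.885, 0.729 to 1.07). All of the 8 extraembryonic endoderm markers were more than 2-fold higher there, from 326 to 7758 RPM. Of the 8 neural progenitor markers 7 were found in the annotation and 5 had at least 10 reads, from a summed 149 RPM to 210. Nes (66 ESC and 121 NPC reads), Pax6 (1 and 12), Zic1 (1 and 22) and Vim (469 and 706) were higher in NPCs and Msi1 (99 and 60) was lower, while Fabp7 had 0 and 2 reads and Hes5 1 and 2. The fibroblast list summed to 53.1 RPM in ESCs and 374 in NPCs, where Pdgfra supplied 1394 of its 1647 reads. Of the 6 fibroblast markers with at least 10 reads 5 were higher in NPCs, among them Col1a2 with 51 and 165, and Thy1 was lower, with 79 and 12. Lum had 0 reads in both libraries. The part of cell composition in the scaRNA and snRNA ratios was not tested, and fewer cells of a type and less RNA per cell cannot be told apart here.

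**Figure D2:**
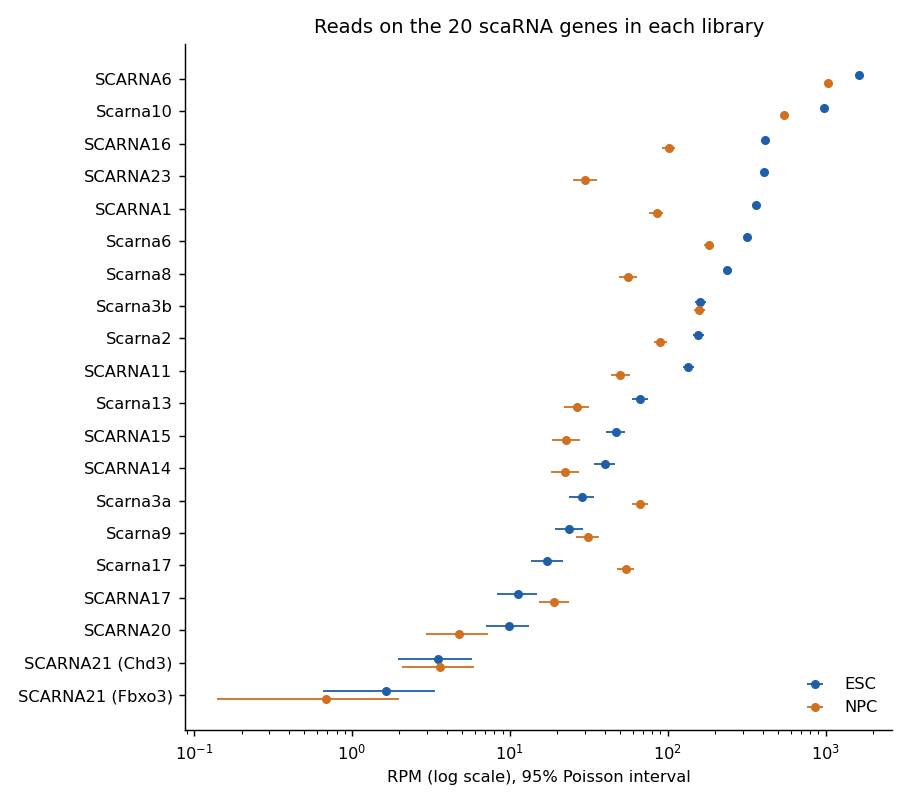
RPM (log scale) on each scaRNA gene in the ESC and NPC libraries, with exact 95% Poisson intervals. SCARNA6 is highest in both libraries and SCARNA23 lies farthest apart. Scarna3a, Scarna9, Scarna17, SCARNA17 and SCARNA21 in Chd3 have a higher RPM in NPCs, and SCARNA21 (3.51 and 3.64 RPM) was not called. Scarna3a lost this direction with each start counted once and Scarna17 with reads that begin in the gene. Scarna9 lost it too with each start counted once, but by interval edges, with 10 ESC and 38 NPC intervals cut by the repeat filter.

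Per length, SCARNA6 had the highest level in both libraries, 5957 RPM per 1000 bases of annotated gene (RPKM) in ESCs (5818 to 6099) and 3825 in NPCs (3715 to 3938). In ESCs it was followed by SCARNA23 at 3156 RPKM and Scarna10 at 3021, whose intervals overlap, and then by SCARNA1 at 2189 and SCARNA16 at 2147, which overlap too. In NPCs Scarna10 at 1685 RPKM and Scarna3b at 1143 came next, and SCARNA23, at 233, was at rank 12. The lowest levels were those of the 2 SCARNA21 genes, at 24.4 and 11.8 RPKM in ESCs. In each library 12 of the 19 pairs of neighbours in this order had overlapping intervals.

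The largest difference among the scaRNAs was that of SCARNA23. The sequences of 6 H/ACA scaRNAs follow, the 4 with the lowest ratios and the pair that differed in the other direction or not at all, with capitals at the 48 bases of the most frequent read of each.
SCARNA23: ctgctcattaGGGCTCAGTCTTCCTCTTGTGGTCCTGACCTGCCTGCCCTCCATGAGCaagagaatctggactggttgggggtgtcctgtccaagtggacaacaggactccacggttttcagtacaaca
SCARNA1: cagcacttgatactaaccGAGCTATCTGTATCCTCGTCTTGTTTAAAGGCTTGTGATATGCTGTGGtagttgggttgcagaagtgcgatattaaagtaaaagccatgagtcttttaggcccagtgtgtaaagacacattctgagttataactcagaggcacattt
Scarna8: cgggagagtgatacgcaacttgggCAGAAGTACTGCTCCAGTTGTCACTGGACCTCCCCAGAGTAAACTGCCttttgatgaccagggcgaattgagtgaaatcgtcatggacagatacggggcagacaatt
SCARNA16: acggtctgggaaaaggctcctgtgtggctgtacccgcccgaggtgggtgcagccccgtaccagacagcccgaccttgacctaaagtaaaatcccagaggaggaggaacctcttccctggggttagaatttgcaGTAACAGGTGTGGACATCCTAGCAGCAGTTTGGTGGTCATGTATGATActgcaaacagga
Scarna3a: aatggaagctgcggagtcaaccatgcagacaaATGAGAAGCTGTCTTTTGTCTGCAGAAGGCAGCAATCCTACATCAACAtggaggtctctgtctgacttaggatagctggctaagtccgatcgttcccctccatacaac
Scarna3b: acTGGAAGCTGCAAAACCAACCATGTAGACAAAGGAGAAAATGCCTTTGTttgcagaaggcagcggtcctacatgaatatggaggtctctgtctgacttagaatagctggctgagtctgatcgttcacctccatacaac
On mm9 these are chr5:92485090-92485218 (SCARNA23, minus strand), chr4:132394298-132394462 (SCARNA1, minus), chr4:86232357-86232487 (Scarna8, minus), chr11:116938557-116938749 (SCARNA16, plus), chr1:161270414-161270553 (Scarna3a, plus) and chr12:81492600-81492738 (Scarna3b, minus). The letters ACA, the box for which the class is named, stand within the last 6 bases of each.

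SCARNA23, in an intron of G3bp2, had 1739 reads in ESCs and 132 in NPCs, 13.6-fold lower RPM in NPCs, a ratio of 0.0737 (0.0613 to 0.0880). Its most frequent start, base 11, held 1319 ESC and 85 NPC reads, and the reads from all other starts gave a ratio of 0.109 (0.0786 to 0.147). With each start position counted once, however many reads began there, it had 27 starts in ESCs and 16 in NPCs, and the ratio was 0.491 (0.247 to 0.945). The exons of G3bp2 had 974 and 1290 reads, a ratio of 1.29 (1.18 to 1.40), so the scaRNA and its host differed in direction.

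Among the other H/ACA scaRNAs, those assigned an snRNA target here had fewer reads in NPCs wherever their interval excluded 1. Most of these intervals reached 1 with each start counted once, a count that limits a short gene to few starts. SCARNA1, a guide for U2 in an intron of Ppp1r8, had 1543 reads in ESCs and 374 in NPCs, a ratio of 0.235 (0.210 to 0.264). Scarna8, also a guide for U2 and located in Haus6, had 1019 and 247, likewise 0.235 (0.204 to 0.271). SCARNA15, the third H/ACA guide for U2, in 2810403A07Rik, had 200 and 100 reads and a ratio of 0.485 (0.378 to 0.620), though only 92 and 58 of them were of unique sequence, with a ratio of 0.612 (0.433 to 0.859).

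SCARNA16, a guide for U1 that overlaps an exon of the transcript 2810008D09Rik, had 1770 reads in ESCs and 448 in NPCs, a ratio of 0.246 (0.221 to 0.273), while the rest of that transcript had 9 and 4 reads. SCARNA11, a guide for U5 in the chromatin remodeller gene Chd4, had 577 and 221 reads and a ratio of 0.372 (0.317 to 0.435). The tandem H/ACA gene Scarna13, which lies outside other genes on the same strand, had 287 and 117, a ratio of 0.396 (0.316 to 0.492). Smaller differences were seen for SCARNA14 in Tipin, with 170 and 99 reads (ratio 0.565, 0.437 to 0.729), and for SCARNA20 in Wbscr22, with 42 and 21 (0.485, 0.273 to 0.838). With each start counted once, the ratios were 0.603 (0.296 to 1.20) for SCARNA1, 0.684 (0.352 to 1.31) for Scarna8, 0.682 (0.311 to 1.47) for SCARNA15 and 0.704 (0.346 to 1.42) for SCARNA11. These rested on few starts, 22 in ESCs and 16 in NPCs for SCARNA1 and 23 and 19 for Scarna8. The intervals of SCARNA14 and SCARNA20 also included 1 by that count, and those of SCARNA16 (0.531, 0.308 to 0.90) and Scarna13 (0.614, 0.397 to 0.941) did not.

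SCARNA21, a guide for U12 snRNA, could not be called at this depth. The gene in Fbxo3 had 7 and 3 reads, and the one in Chd3 had 15 in ESCs and 16 in NPCs, a ratio of 1.04 (0.479 to 2.25) that fell below 1 under other ways of counting or scaling. Just upstream of the annotated SCARNA21 in Chd3, a stretch of 100 bases held 63 more reads in ESCs and 137 in NPCs that did not touch the gene. With this stretch included, a choice made after its reads were seen, the ratio was 1.90 (1.44 to 2.53), and the exons of Chd3 had 19 and 51 reads.

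Scarna3a and Scarna3b, with 85.7% identity, differed from each other. Scarna3a, in an intron of Rfwd2, was one of the scaRNAs higher in NPCs, with 122 reads in ESCs and 293 in NPCs, a ratio of 2.33 (1.88 to 2.90). Scarna3b, in Dcaf5, had nearly equal counts, 688 and 699, a ratio of 0.986 (0.887 to 1.10), and these intervals of the pair did not overlap. Their hosts were both higher in NPCs, Rfwd2 with 113 and 207 exon reads and Dcaf5 with 66 and 236.

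The starts of the reads also differed between the libraries on this pair. On Scarna3a base 33 held 86 of 122 ESC reads, 70.5% (61.6 to 78.4%), and 263 of 293 NPC reads, 89.8% (85.7 to 93.0%). On Scarna3b base 33 held 19.5% (16.6 to 22.6%) in ESCs and 37.5% (33.9 to 41.2%) in NPCs, and base 3 held 65.8% and 55.9%. The higher count of Scarna3a in NPCs was thus in reads from base 33, which gave a ratio of 2.97, while the reads from other bases numbered 36 and 30, with a ratio of 0.809 (0.481 to 1.35), and with each start counted once the ratio was 0.621 (0.178 to 2.04).

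**Figure D3:**
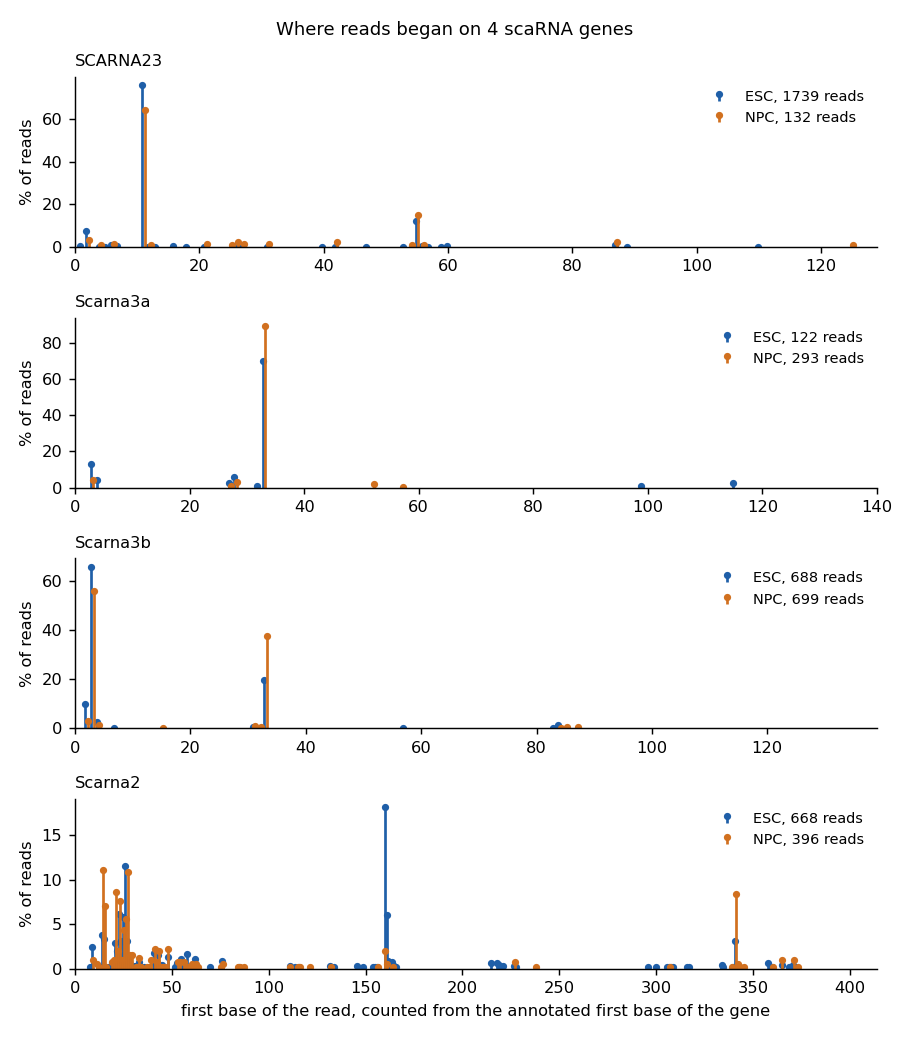
Share of the reads of 4 scaRNA genes that began at each base, counted from the annotated first base, in ESCs and NPCs. Base 33 holds a larger share in NPCs on Scarna3a and Scarna3b, and the peak of Scarna2 at base 160 is 18.1% in ESCs and 2.02% in NPCs.

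The 3 composite scaRNAs, which carry both C/D and H/ACA boxes and guide modification of U5, were each lower in NPCs. SCARNA6 and Scarna6, at chr1:89673513-89673784 and chr1:89681131-89681395 in introns of Atg16l1, had 6921 and 1365 reads in ESCs and 4578 and 800 in NPCs. The ratios were 0.642 (0.618 to 0.667) and 0.569 (0.521 to 0.621), while the Atg16l1 exons had 126 and 337 reads, a ratio of 2.60 (2.11 to 3.21). Scarna10, in Ncapd2 on chr6:125136377-125136701, had 4193 and 2410 reads and a ratio of 0.558 (0.531 to 0.587). With each start counted once, the interval of Scarna6 included 1 (0.817, 0.575 to 1.16) and those of SCARNA6 and Scarna10 did not. The exons of Ncapd2, a condensin subunit gene, were lower in NPCs as well, with 719 and 514 reads and a ratio of 0.694 (0.619 to 0.778).

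On SCARNA6 a single start, base 125, accounted for 80.4% of ESC reads and 81.9% of NPC reads. Scarna6, with 61.4% identity to it, had no such start, and base 48, its most frequent start over both libraries together, held 15.5% and 12.3%. Of the 20 scaRNAs, 8 had a most frequent start that held over 50% of the reads in both libraries.

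The C/D box scaRNAs did not move together. Scarna2, a guide for U2 that lies outside other genes at chr3:108357256-108357669, had 668 reads in ESCs and 396 in NPCs, a ratio of 0.576 (0.507 to 0.653). Starts at bases 155 to 170 held 178 of these ESC reads and 12 of the NPC reads, and the remaining 490 and 384 reads gave a ratio of 0.761 (0.664 to 0.871). Scarna2 was also the scaRNA with the most intervals cut short by the repeat filter, 191 in ESCs and 12 in NPCs, and Scarna9, with 10 and 38, was the only other.

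Scarna9, another guide for U2, had 102 and 137 reads within its 70 annotated bases, a ratio of 1.30 (1.00 to 1.70), and lies in an intron of 5830418K08Rik, whose exons had a ratio of 1.14 (1.01 to 1.29). Next to it on the same strand, the annotated gene snoU2_19 had 50 ESC reads and 68 NPC reads. The stretch from the one gene to the other held 201 and 249, a ratio of 1.20 (0.995 to 1.46). The ratio of Scarna9 was not separated from 1 in other ways of counting: it was 1.07 (0.794 to 1.44) for reads that begin in the gene and 0.552 (0.115 to 2.33) with each start counted once. The latter ratio came from 6 and 4 edges of placed intervals, some of them cut by the repeat filter. The reads of Scarna9 themselves began at 12 positions in ESCs and 19 in NPCs, so 0.552 does not describe where they began. It was 1.18 (0.908 to 1.54) when scaled by the reads outside the 10 genes with the most reads, and 1.03 (0.792 to 1.35) when scaled by the median of ratios.

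Scarna17 and SCARNA17, adjacent genes outside other genes, guide modification of U4 and of U12. Scarna17 had 74 reads in ESCs and 238 in NPCs, the highest ratio among the scaRNAs at 3.12 (2.40 to 4.11), and SCARNA17 had 48 and 84, a ratio of 1.70 (1.18 to 2.48). Most reads began before the annotated first bases: with the 5′ end required to lie in the gene, Scarna17 kept 3 reads in ESCs and 1 in NPCs. With each start counted once both intervals included 1, with ratios of 1.33 (0.668 to 2.72) for Scarna17 and 1.32 (0.692 to 2.57) for SCARNA17. Over both genes, the bases between them and 50 on each side, the reads numbered 138 and 366, a ratio of 2.57 (2.11 to 3.15).

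**Figure D4:**
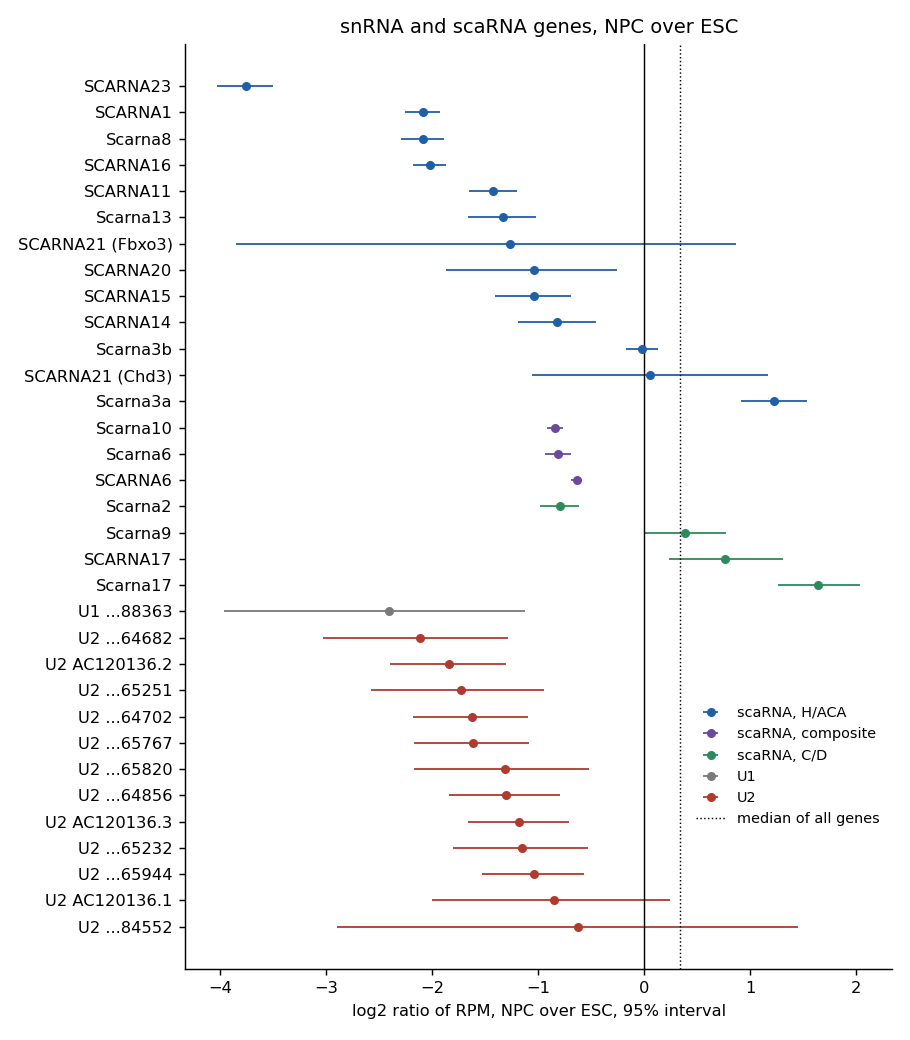
Log2 ratio of RPM, NPC over ESC, for each snRNA and scaRNA gene by class, with exact 95% intervals and the median of all genes (0.34) as a dotted line. All U1 and U2 points and the 3 composite scaRNAs lie below 0, and Scarna3a, SCARNA17, Scarna17 and Scarna9 lie above it with their intervals. Of these, Scarna3a fell below 0 with each start counted once and Scarna17 with reads that begin in the gene. Scarna9 fell below 0 with each start counted once too, but by interval edges, with 10 ESC and 38 NPC intervals cut by the repeat filter. The U1 point is the gene in the last exon of Tcfcp2l1, and its reads were not shown to come from U1 RNA.

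By class, the median log2 ratio with 1 read added was -1.04 for the 13 H/ACA genes, -0.81 for the 3 composite genes and 0.57 for the 4 C/D genes. The summed read ratios were 0.329 (0.315 to 0.343), 0.606 (0.589 to 0.623) and 0.931 (0.846 to 1.02). For the C/D genes, which include the adjacent Scarna17 and SCARNA17, the median and the sum thus lay on different sides of no change. By the target assigned here, 4 of the 5 guides for U2 and all of the 4 for U5 were lower in NPCs, beside 37.2% of all genes. With each start counted once, the intervals of SCARNA1, Scarna8, SCARNA15, SCARNA11 and Scarna6 among these lower guides included 1. Those of Scarna2, SCARNA6 and Scarna10 did not. The summed read ratios of all members assigned to a target were 0.345 (0.323 to 0.368) for U2 and 0.596 (0.579 to 0.612) for U5. Some members, Scarna13 among them, were assigned no target, so guides may be missing from these counts and sums.

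The scaRNAs in introns were compared with their hosts. Of 15 such genes, whose 14 hosts all had at least 50 reads, 13 had a lower NPC over ESC ratio than the exons of the host. The median log2 ratio was -0.84 for the scaRNAs and 0.19 for the hosts, where a host was counted once for each of its scaRNAs. Of the 15 host values 10 were above 0 and 5 below it, near the 37.2% of all genes that were below 0. The exceptions were Scarna3a and Scarna9.

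**Figure D5:**
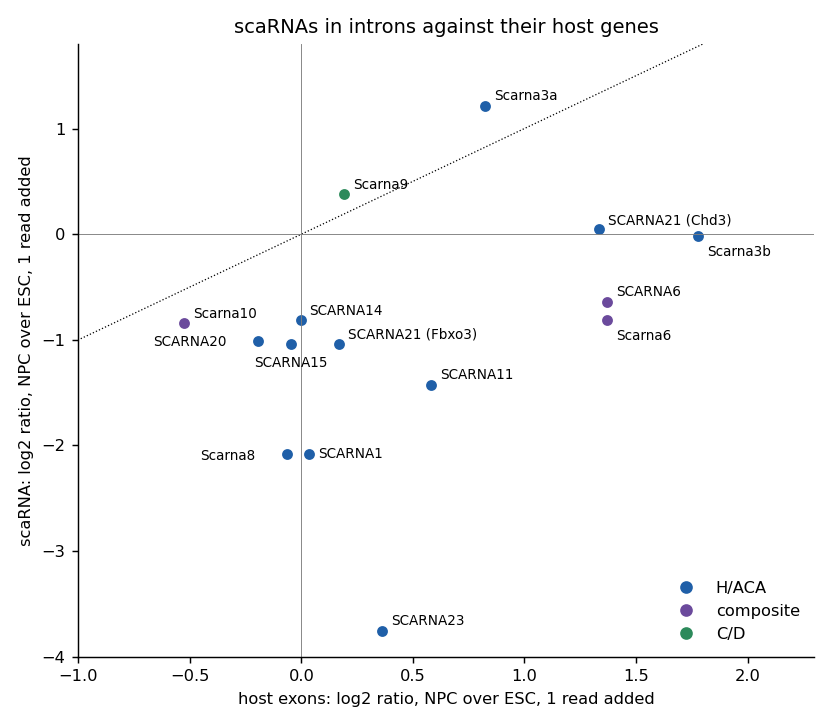
Log2 ratio of each intronic scaRNA, NPC over ESC, against that of the exons of its host gene, with 1 read added and each point a scaRNA. Points below the dotted line of equal ratios, 13 of the 15, are scaRNAs whose ratio was lower than that of the host, and SCARNA23 lies at -3.75 beside a host value of 0.36.

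The genes for proteins that bind, make or mature the snRNAs were set beside the members as 10 lists, from the same NPA libraries, in which poly(A) RNA had been depleted. Of 98 genes with at least 10 reads, 34 had a ratio below 0 on the log2 scale and 3 were more than 2-fold lower, beside 37.2% and 12.8% of all genes, and their median was 0.36. The Sm core genes had a median of 0.13, with 4 of 8 lower, between Snrpg with 79 reads in ESCs and 61 in NPCs and Snrpd3 with 62 and 132, and Snrpb, the one with the most reads, had 580 and 772. All of the 3 U1 snRNP protein genes were lower, from Snrpa with 254 and 123 reads to Snrnp70 with 438 and 258. Of the 12 U2 snRNP protein genes 2 were lower, among them Snrpa1 with 174 and 105 reads, while Sf3a3, a subunit of splicing factor SF3A, had 220 and 432.

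The other lists spread to both sides. For U4, U5 and U6 proteins, 7 of 16 were lower, from the U5 helicase gene Snrnp200 with 2368 and 1718 reads to Prpf31 with 104 and 214. Of the LSm ring of U6, 1 of 6 was lower, Lsm4 with 90 and 63 reads, and Lsm6 had 35 and 69. In snRNA transcription 2 of 9 were lower, Zfp143 having 179 and 121 reads and the SNAPc subunit gene Snapc1 16 and 41.

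For the Integrator complex, which cleaves the 3′ end of snRNA precursors, 4 of 13 were lower, from the catalytic subunit gene Cpsf3l with 339 and 154 reads to Ints6 with 87 and 340. In export, Sm assembly and cap trimethylation, 4 of 17 were lower, with Gemin8 at 36 and 20 reads, the cap-binding gene Ncbp2 at 38 and 152, and Strap, the one with the most reads, at 585 and 861. In the list kept for U6 processing 1 of 4 was lower, AA960436 with 115 and 65 reads. Toe1, a 3′ exonuclease gene placed in this list, had 45 and 154, and which snRNAs it acts on was not examined. The last list joins Cajal body, H/ACA core and C/D core protein genes, and 6 of its 10 were lower, with a median of -0.38. They lay between Nop10, an H/ACA core protein gene, with 195 and 85 reads and the C/D core protein gene Nop58 with 341 and 737.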

How the data were processed

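NPA RNA of 1 ESC and 1 NPC culture was sequenced on SOLiD from 2 µg of RNA after 3 rounds of poly(A) removal and 1 of ribosomal RNA removal, and libraries of 150 to 250 bp were amplified by 15 cycles of PCR. Per their methods, the authors aligned the reads to mm9 with Bowtie, kept 1 placement for a read with several, and removed reads in mitochondrial, ribosomal and Repeat Masker regions. The deposited files hold read placements (chromosome, start, end, strand and 48 nt of sequence) and not counts per gene, and 1 line was taken as 1 read count. No molecular identifiers were used, so intervals cover counting error only, and 1 read is worth 0.234 RPM (reads per 1000000) in ESCs and 0.227 in NPCs.

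Reads that overlapped a GENCODE M1 gene by at least 1 base on its strand were counted (for protein-coding and other spliced genes, its exons) and scaled by the library total. Where each start position was counted once, the start was the 5′ edge of the placed interval, which the repeat filter may have cut. Those counts were scaled by the distinct starts of the library, 1531216 in ESCs and 1848069 in NPCs, so their ratios are not RPM ratios. Intervals are exact at 95%: Poisson for counts, Clopper-Pearson for shares and conditional binomial for ratios, and log2 ratios over lists add 1 read. Occurrences of the 48 nt, or of the first 47, were counted over mm9 in both orientations. Sequences were read from mm9 at the GENCODE coordinates, since 0 of the 33 members matched the RefSeq tables, and base 1 is the first annotated base. The members, the lists and their genes were chosen with earlier results of these data known. Every member is named or counted. Of each list the genes with the highest and lowest log2 ratio among those with at least 50 reads are named, of 2 lists also the one with the most reads, and hosts of scaRNAs. Interval and ratio code was tested on simulated counts. The work was done in Python 3.11.15 with pandas 2.3.3, pysam 0.24.0, SciPy 1.17.1, matplotlib 3.10.9, NumPy 2.4.6 and numba 0.67.0. Alternatives are given in the closing section.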

Additional observations from a re-analysis of the deposited data

How the results depend on the processing

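The summed ratio, the median log2 ratio and the number of lower genes stayed on the side of fewer NPC reads under each setting tried. For snRNAs 1 of these settings, the count of starts, held no U2 gene. With reads of unique sequence, 5 snRNA genes were left, 5 of them lower, with a summed ratio of 0.467 and a median of -0.78. With each start position counted once, 1 snRNA gene was left, the U1 gene, which was lower with an interval that included 1. That setting gave no support for a lower U2, and the scaRNA ratio was 0.708. Scaling by reads outside the 10 genes with the most reads gave a scaRNA ratio of 0.466, and the 5′ end of the read in the gene gave 0.502. The median of ratios lowered all log2 ratios by 0.34 and gave 0.290 for snRNAs and 0.406 for scaRNAs. With at least 1 read, 25 of 29 snRNA genes were lower. Of 154 values for U2, U1 and single scaRNAs, 117 stayed within the main interval, 33 left it in the same direction and 4 changed direction: Scarna3a and Scarna9 with each start counted once (0.621 and 0.552), and Scarna17 with its 5′ end in the gene (0.324) or its whole interval there (0.485). The start count took edges of placed intervals, some cut by the repeat filter. For Scarna9 it held 6 edges in ESCs and 4 in NPCs, while its reads began at 12 and 19 positions. Of the 20 scaRNAs 13 had an interval below 1 and 4 above it, and with each start counted once 6 of the 13 and 0 of the 4 did. SCARNA23 then had a ratio of 0.491 (0.247 to 0.945) and the U1 gene 0.355 (0.0593 to 1.56). The U1 value came from 7 and 3 interval edges, while the reads on that gene began at 14 positions in ESCs and 6 in NPCs. Of the 4 above 1, 2 were left with the median of ratios, from which Scarna9 and SCARNA17 dropped out, and 2 with reads that begin in the gene, from which Scarna9 and Scarna17 did. The median of ratios and the scaling outside the 10 genes put the interval of Scarna3b below 1, and with reads that begin in the gene that of SCARNA20 included 1. The ratio of SCARNA21 in Chd3, which was not called, fell below 1 (0.809 to 0.971) under all 7 of its alternatives. Counting each start once limits a short gene to few starts: U2 then had 12 in ESCs and 13 in NPCs, a ratio of 0.898. Most of these U2 starts were interval edges left by the repeat filter. Ratios of starts were scaled by the distinct starts of each library and not by its reads. No paired analysis was possible because each cell type has 1 library, and for the same reason none could be left out.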
